A study of Mus musculus with 2 samples.

Results

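A set of 10 genes for adhesion and homing in the bone marrow was examined in mouse megakaryocyte-erythroid progenitors (MEP): 9 integrin chains, Itga4, Itga5, Itga6, Itgav, Itgal, Itgam, Itgb1, Itgb2 and Itgb7, and the chemokine receptor gene Cxcr4. They were taken by gene symbol from a list chosen for this role, and were 10 of 43346 annotated genes in the tables. The 9 chains were members of a family with 26 chains, 18 α and 8 β. MEP are the marrow progenitors from which red cells and megakaryocytes arise. The series had 1 group: total RNA longer than 200 bases from primary MEP of adult male C57BL/6J mice aged 5 to 6 weeks, 100 cells a library, with no treatment or altered allele named. The 2 libraries are replicates 1 and 2 of the labels, with separate biosamples and the same donor record. With no other condition, no test between groups was possible, and no p-value is given. The spread between the 2 libraries may be technical.

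Integrins are cell surface receptors made of 1 α and 1 β chain, and the pair decides the ligand. The α chains 4, 5, 6 and v can each join β1 and bind VCAM1, fibronectin, laminin or other matrix proteins, which hold blood progenitors to stroma and matrix. The α chains L and M join β2 on white cells and bind ICAM proteins and complement, while β7 joins α4 to bind MADCAM1. CXCR4 is the receptor for CXCL12, a chemokine of marrow stroma that retains blood cells in the marrow and can raise integrin affinity through inhibitory G proteins.

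Levels are given as TPM, the authors' length-corrected share of all transcripts in a library, so that genes can be compared within a library. The tables summed to 30016974 expected counts (reads or fragments assigned by estimation) in replicate 1 and 51510347 in replicate 2, and the 10 genes held 18640 and 36684 of them. The label was checked against markers: all 6 erythroid and MEP markers were at 1 TPM or more in both libraries, led by Car1 at 1941.34 and 2286.30 TPM, Gfi1b at 137.37 and 155.64 and Gata1 at 77.52 and 100.24. Of 6 megakaryocyte markers 1, the integrin gene Itga2b, reached 1 TPM in both. Markers of other blood cells differed between the libraries. The 11 neutrophil and monocyte markers summed to 1891 TPM in replicate 1 and 6.39 in replicate 2, and the 7 B cell markers to 7.14 and 126 TPM.

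At the level of 1 TPM in both libraries, 9 of the 10 genes were detected, and Itgam was not. This level was reached by 44.2% of 21461 protein-coding nuclear genes. The 4 genes Itga4, Itgb1, Itga5 and Cxcr4 were at 10 TPM or more in both libraries, 4 of 10 beside 24.7% of all protein-coding nuclear genes. The 10 genes were chosen with earlier results of these data known, so these shares cannot show that integrins are detected more often than other genes. Over the whole family, 6 of 18 α chains and 3 of 8 β chains were at 1 TPM or more in both libraries. The median over the 10 genes of the mean TPM was 8.54 (9.66 in replicate 1 and 7.43 in replicate 2), below the 12.8 TPM of the 9982 protein-coding nuclear genes with a mean of at least 1 TPM. The 2 medians rest on unlike sets, since the 10 genes include Itgam, with a mean of 0.87 TPM. By mean TPM, Itga4 exceeded 93.2% of those 9982 genes, Itgb1 77.7%, Itga5 64.9% and Cxcr4 54.2%. The other members with a mean of at least 1 TPM ran from 39.8% for Itga6 down to 16.3% for Itgb7.

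**Figure D1:**
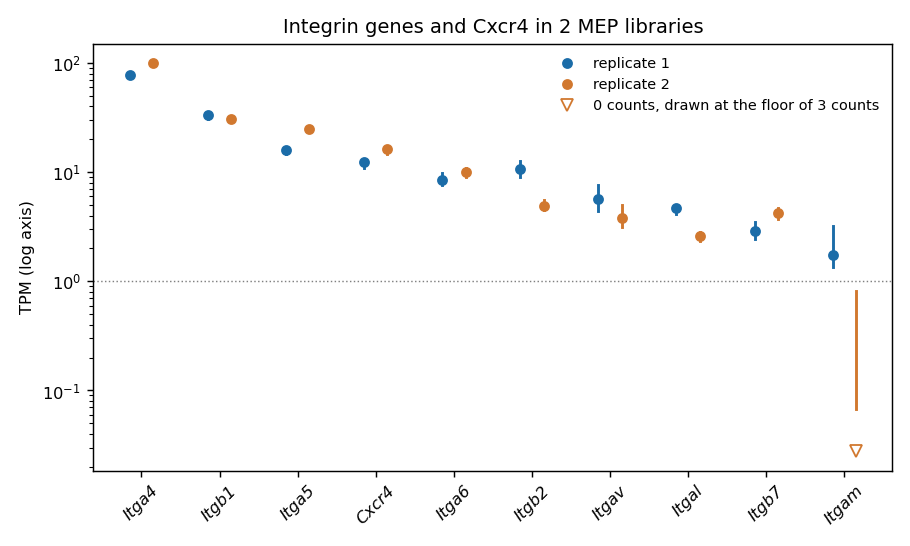
TPM of the 10 genes (log axis) in replicates 1 and 2, with vertical lines for the authors' credibility intervals. Itga4 stood highest in both libraries, and Itgam had 101 counts in replicate 1 and 0 in replicate 2, where an open triangle marks the TPM that 3 counts would give at the effective length listed for the gene.

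Placed in order of mean TPM, the genes ran Itga4, Itgb1, Itga5, Cxcr4, Itga6, Itgb2, Itgav, Itgal, Itgb7 and Itgam. Of the 9 neighbouring pairs in this order, 4 had library values that did not overlap: Itga4 over Itgb1, Itgb1 over Itga5, Cxcr4 over Itga6 and Itgb7 over Itgam. The other 5 pairs overlapped across libraries, but within each library 3 of them kept their order: Itga5 over Cxcr4, with credibility intervals apart in both libraries, and Itgb2 over Itgav and Itgav over Itgal, with intervals that overlapped in 1 library or more. The order turned between the libraries for Itga6 and Itgb2 and for Itgal and Itgb7. The place of Itgav over Itgal rests on short transcripts. Over transcripts of at least 1000 bases it reversed in both libraries, with Itgav at 1.56 and 1.53 TPM and Itgal at 4.74 and 2.61.

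Itga4 (ENSMUSG00000027009.14, chr2:79255426-79333123 on GRCm38, plus strand) encodes the α4 chain that joins β1 to bind VCAM1 and fibronectin. It was at 77.01 TPM (12208 counts) in replicate 1 and 99.20 TPM (24789 counts) in replicate 2, a mean of 88.1 ± 15.7 TPM (SD, n = 2). Replicate 2 was the higher library, and both were far above every other member. The mean exceeded that of 93.2% of expressed protein-coding genes, where expressed means a mean of at least 1 TPM. The ratio of replicate 2 to replicate 1 was 1.29 (95% exact interval from the counts 1.26 to 1.32), and it narrowed to 1.03 when counts scaled with TMM factors were used. All such intervals cover counting error only.

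Beside each TPM the authors give a credibility interval, which belongs to a posterior mean and not to the TPM itself. For Itga4 the posterior means were 73.98 and 96.18 TPM and the intervals 72.1 to 75.8 and 94.4 to 97.9, so the TPM lay above its own interval in both libraries. The level of these intervals is not given in the sources used here. Of 5 Itga4 transcripts in the tables, ENSMUST00000099972.4, with 28 exons, was the single protein-coding one. It held 68.3% of the gene's TPM in replicate 1 and 59.5% in replicate 2, but 91.1% and 88.3% of its counts. The rest of the TPM was mostly on short transcripts without a coding sequence, ENSMUST00000141094.3 at 10.6% and 16.2% and ENSMUST00000155105.1 at 15.1% and 15.5%, since a count on a short transcript weighs more in TPM. The last 2581 bases of the gene overlap Cerkl on the opposite strand, which was at 2.92 and 2.15 TPM. Whether counting used the strand is not given in the sources used here, so reads of this overlap cannot be told apart.

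Itga5 (ENSMUSG00000000555.6, chr15:103344286-103366763, minus strand) encodes the α chain of the main fibronectin receptor, α5β1. It was at 16.09 TPM (1500 counts) in replicate 1 and 24.60 TPM (4003 counts) in replicate 2, a mean of 20.3 ± 6.02 TPM (SD, n = 2). Replicate 2 was the higher, and the credibility intervals, 14.7 to 16.2 and 23.1 to 24.6, did not overlap. Its ratio of 1.53 (95% exact interval 1.44 to 1.62) was the largest in the direction of replicate 2 among the 10 genes, with an interval that overlapped those of Itgb7 and Cxcr4, and was 1.35 with TMM factors. The tables hold 1 transcript of this gene, so no share between forms was measured.

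Itga6 (ENSMUSG00000027111.11, chr2:71745616-71858416, plus strand) encodes the α chain of the laminin receptor α6β1. It was at 8.52 TPM (518 counts) in replicate 1 and 9.97 TPM (947 counts) in replicate 2, a mean of 9.25 ± 1.03 TPM (SD, n = 2). The libraries were close, their credibility intervals overlapped (7.58 to 9.83 and 8.99 to 11), and the order of the libraries turned with the scaling: the ratio of replicate 2 to replicate 1 was 1.17 in TPM and 0.926 with TMM factors.

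The α6 chain has a pair of known cytoplasmic tails, A and B, made by including or skipping 1 exon. Their coding parts are shown because they are the coding sequence by which the 2 forms differ. Lower case marks the last 15 coding bases shared by both. Capitals mark the bases that code in 1 form only, up to the last codon before the stop. The B bases are also part of the A transcript, where they are untranslated, so only the A exon belongs to 1 form. The coding part of the A exon, whose whole length is 130 bases, lies at chr2:71853534-71853638 and the B part at chr2:71855854-71856012, plus strand of GRCm38, and the sequences shown for all genes come from the GENCODE M21 transcripts.
Itga6 A tail: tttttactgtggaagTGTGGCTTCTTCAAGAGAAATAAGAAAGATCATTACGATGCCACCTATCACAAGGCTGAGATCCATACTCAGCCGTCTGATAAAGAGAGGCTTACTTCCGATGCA
Itga6 B tail: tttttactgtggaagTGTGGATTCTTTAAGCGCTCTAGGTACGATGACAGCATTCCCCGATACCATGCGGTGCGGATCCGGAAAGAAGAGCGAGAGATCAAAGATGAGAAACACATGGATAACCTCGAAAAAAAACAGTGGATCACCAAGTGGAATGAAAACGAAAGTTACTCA

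Transcripts that hold the A exon were at 4.03 TPM (352 counts) in replicate 1 and 3.15 TPM (502 counts) in replicate 2. Transcripts that skip it were at 2.39 TPM from 136 counts and 3.75 TPM from 370 counts. The skipping form made up 37.2% of both kinds in replicate 1 and 54.3% in replicate 2, and these counts lay on ENSMUST00000126787.1, a transcript of 3 exons without a coding sequence. It reaches 1658 bases past the end of the full-length A form (ENSMUST00000028522.5), so these counts can come from that stretch and are no direct measure of splicing. The full-length B form (ENSMUST00000112101.3) had 0 counts in both libraries. Protein-coding transcripts held 47.4% of the gene's TPM in replicate 1 and 31.6% in replicate 2.

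Itgav (ENSMUSG00000027087.7, chr2:83724397-83806916, plus strand) encodes αv, which joins β1 and several other β chains to bind vitronectin and other matrix proteins. It was at 5.66 TPM (244 counts) in replicate 1 and 3.81 TPM (268 counts) in replicate 2, a mean of 4.74 ± 1.31 TPM (SD, n = 2). Replicate 1 was the higher, with overlapping credibility intervals of 4.44 to 7.56 and 3.12 to 5. More than any other level here, this one rested on a short transcript: ENSMUST00000131192.1, of 463 bases, held 55.3% and 59.8% of the TPM from 22.5 and 26.1 counts, while the full-length ENSMUST00000028499.6 held 79% and 59.3% of the counts. Summed over transcripts of at least 1000 bases, Itgav was at 1.56 and 1.53 TPM.

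Itgb1 (ENSMUSG00000025809.11, chr8:128685654-128733200, plus strand) encodes β1, the shared partner of these α chains. It was at 33.13 TPM (2530 counts) in replicate 1 and 30.81 TPM (4343 counts) in replicate 2, a mean of 32.0 ± 1.64 TPM (SD, n = 2). The libraries were close and their credibility intervals overlapped (30.8 to 34.7 and 29.3 to 31.3). The widely used A form (ENSMUST00000090006.7) held 93.6% of the TPM in replicate 1 and 100% in replicate 2. The D form, known from striated muscle, differs in the cytoplasmic tail, and the tails are shown to say which of them MEP carried. Lower case marks the 15 shared bases and capitals the tail of each form, at chr8:128732023-128732085 for A and chr8:128726983-128727054 for D.
Itgb1 A tail: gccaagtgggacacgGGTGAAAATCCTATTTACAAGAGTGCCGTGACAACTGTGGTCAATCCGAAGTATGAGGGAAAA
Itgb1 D tail: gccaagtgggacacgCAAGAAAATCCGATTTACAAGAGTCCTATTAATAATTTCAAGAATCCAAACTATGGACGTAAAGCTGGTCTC

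The transcript with the D exon (ENSMUST00000149116.1) had 0.2 expected counts in replicate 1 and 0 in replicate 2. The A form was thus the one that was counted, beside 2.11 TPM on a retained intron transcript in replicate 1.

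Itgb2 (ENSMUSG00000000290.9, chr10:77530252-77565708, plus strand) encodes β2, the shared β chain of the leukocyte integrins. It was at 10.80 TPM (461 counts) in replicate 1 and 4.88 TPM (493 counts) in replicate 2, a mean of 7.84 ± 4.19 TPM (SD, n = 2). Replicate 1 was the higher, its credibility interval (8.95 to 12.7) lay above that of replicate 2 (4.49 to 5.58), and the ratio of replicate 1 to replicate 2 was 2.21 (95% exact interval 1.94 to 2.52). A transcript of 630 bases, ENSMUST00000130059.3, carried 3.66 TPM of this from 39.8 counts in replicate 1 and had 0 counts in replicate 2. Without it the gene was at 7.14 and 4.88 TPM, a ratio of 1.46, and with TMM factors on counts the ratio was 1.85.

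A further difference inside Itgb2 concerned ENSMUST00000153541.1, a transcript annotated for nonsense-mediated decay, the route that removes mRNAs with an early stop. It held 27.8% of the TPM from 163.6 counts in replicate 1 and 53% from 244.9 counts in replicate 2, beside 38.3% and 47% for the full-length coding ENSMUST00000000299.9. At 2619 bases against 2970 for the coding one, the decay transcript differs by more than 1 exon, so its counts are no direct measure of exon skipping. It skips 1 exon of 245 bases (chr10:77559479-77559723, plus strand). That exon is shown in capitals between 15 bases of each neighbouring exon because its absence is 1 difference between the 2 transcripts.
Itgb2 exon: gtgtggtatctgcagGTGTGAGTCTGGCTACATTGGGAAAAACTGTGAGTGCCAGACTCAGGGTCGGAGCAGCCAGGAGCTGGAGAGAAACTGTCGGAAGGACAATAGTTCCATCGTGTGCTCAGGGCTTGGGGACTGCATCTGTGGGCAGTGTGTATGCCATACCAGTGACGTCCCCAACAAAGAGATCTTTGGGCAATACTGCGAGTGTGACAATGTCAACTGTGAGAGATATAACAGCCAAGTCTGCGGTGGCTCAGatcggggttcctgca

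Itgal (ENSMUSG00000030830.14, chr7:127296260-127335138, plus strand) encodes αL, which joins β2 to bind ICAM proteins. It was at 4.73 TPM (462 counts) in replicate 1 and 2.62 TPM (436 counts) in replicate 2, a mean of 3.68 ± 1.49 TPM (SD, n = 2). As for its β partner, replicate 1 was the higher and the credibility intervals (4.17 to 5.05 and 2.32 to 2.82) did not overlap. The ratio of replicate 1 to replicate 2 was 1.81 (95% exact interval 1.58 to 2.06) in TPM, 2.05 after rescaling over protein-coding nuclear genes and 2.09 with TMM factors. The protein-coding ENSMUST00000106306.4 and ENSMUST00000118405.1 shared most of the TPM, at 48.1% and 43% in replicate 1 and 44.4% and 55.6% in replicate 2.

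Itgam (ENSMUSG00000030786.14, chr7:128062640-128118491, plus strand) encodes αM, or CD11b, the chain of neutrophils and monocytes. It was at 1.74 TPM from 101 counts in replicate 1 and had 0 counts in replicate 2. The TPM that 3 counts stand for depends on the transcript: 0.0278 TPM at the effective length listed for the gene in replicate 2, but 0.67 TPM on a 338-base transcript in replicate 1, so no fold is given from the TPM. The authors' posterior means were 2.20 and 0.40 TPM, and their intervals (1.34 to 3.21 and 0.0683 to 0.818) did not overlap. With 0 counts in replicate 2, the 0.40 TPM there rests on no assigned count, so these values give no measured fold either. None of the counts lay on a transcript that the newer annotation used for names lists as protein-coding. Of them 98 were on ENSMUST00000126475.1, a transcript of 4310 bases that this annotation no longer lists, so whether it codes is not known here. The other 3 were on that 338-base transcript, ENSMUST00000119696.3, which has no coding sequence.

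The 3 members of the β2 group were all higher in replicate 1, in TPM and under every scaling tried. The neutrophil and monocyte markers moved the same way: 10 of 11 were higher in replicate 1, 0 in replicate 2, and the remaining one, the neutrophil marker Ly6g (named after its value was seen), had 0 counts in both. S100a8 was at 781.84 and 5.81 TPM, S100a9 at 677.38 and 0.52, and Ngp at 182.49 and 0, and 8 of the 11 had 0 counts in replicate 2. The 8 T and NK cell markers, whose cells also carry αLβ2, did not move together: 4 were higher in replicate 1 and 3 in replicate 2. Nkg7 was at 23.00 and 19.24 TPM and Cd3e at 4.10 and 8.24, and the sums of 50.3 and 37.9 TPM differed mostly by Cd3g, at 12.59 and 1.10. In replicate 2, where the neutrophil markers were near 0, Itgb2 was still at 4.88 and Itgal at 2.62 TPM. The part of other cells in the β2 values was not tested, and in such bulk samples fewer cells of a type and less RNA per cell cannot be told apart.

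Itgb7 (ENSMUSG00000001281.5, chr15:102215995-102231944, minus strand) encodes β7, the gut-homing partner of α4. It was at 2.89 TPM (161 counts) in replicate 1 and 4.22 TPM (409 counts) in replicate 2, a mean of 3.55 ± 0.94 TPM (SD, n = 2). Replicate 2 was the higher, its credibility interval (3.76 to 4.66) lay above that of replicate 1 (2.42 to 3.48), and the ratio was 1.46 (95% exact interval 1.21 to 1.76). Every count lay on the full-length ENSMUST00000001327.5.

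Cxcr4 (ENSMUSG00000045382.6, chr1:128588199-128592293, minus strand) was the only chemokine receptor among the 10 genes. It was at 12.41 TPM (455 counts) in replicate 1 and 16.41 TPM (996 counts) in replicate 2, a mean of 14.4 ± 2.83 TPM (SD, n = 2), near the middle of expressed protein-coding genes at the 54.2 percentile. Replicate 2 was the higher, with credibility intervals of 11 to 13.2 and 14.8 to 17.2 and a ratio of 1.32 (95% exact interval 1.18 to 1.48), or 1.11 with TMM factors. ENSMUST00000052172.6 held 100% of the TPM in replicate 1 and 92.5% in replicate 2. ENSMUST00000142893.1 held the remaining 7.5%, from 34.8 counts. At 902 bases against 1805 for ENSMUST00000052172.6, it differs by more than the 6 bases below, so its counts are no direct measure of that splice. It lacks the last 6 bases of the exon that starts the protein, 2 codons in capitals below (chr1:128592189-128592194, minus strand). They are shown with 15 shared bases on each side because their absence is 1 difference between the 2 transcripts.
Cxcr4 exon end: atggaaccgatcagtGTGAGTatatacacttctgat

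The B cell markers and the erythroid and MEP markers both moved in the direction of Itgb7, Cxcr4, Itga4 and Itga5. All 6 erythroid and MEP markers were higher in replicate 2, with sums of 2358 and 2784 TPM. Most expressed protein-coding genes were also higher in replicate 2 in TPM, with a median difference in log2(TPM + 1) of 0.18, so this direction is not particular to these markers. All 7 B cell markers were higher there too, with Igll1 at 0.43 and 41.77 TPM, Vpreb1 at 0 and 32.50 and Cd79a at 0.62 and 13.90. B cells also carry α4, β7 and CXCR4, and the part of either cell type in these 4 differences was not tested. In replicate 1, where the 7 markers summed to 7.14 TPM, Itga4 was at 77.01, Cxcr4 at 12.41 and Itgb7 at 2.89 TPM.

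Between the libraries, 5 of the 10 genes were higher in replicate 2 and 5 in replicate 1 (4 and 6 with TMM or DESeq2 factors, with Itga6 changing sides). On the scale of log2(TPM + 1), replicate 2 minus replicate 1, the median over the 10 genes was 0.05 with an SD of 0.69. Over the 9982 expressed protein-coding genes the median was 0.18 and the SD 0.58, a shift that rescaling over protein-coding genes brought to 0.01, while the median of the 10 genes went to -0.12. Since the median of all was positive, most expressed protein-coding genes were higher in replicate 2 in TPM, unlike the even split of the 10 genes. Beside the general shift of 0.18, Itga5 at 0.58, Itgb7 at 0.42, Cxcr4 at 0.38, Itga4 at 0.36 and Itga6 at 0.20 lay above it. Itgb1 at -0.10, Itgav at -0.47, Itgal at -0.66, Itgb2 at -1.0 and Itgam at -1.45 lay below it. The β2 group therefore took the 3 lowest places.

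**Figure D2:**
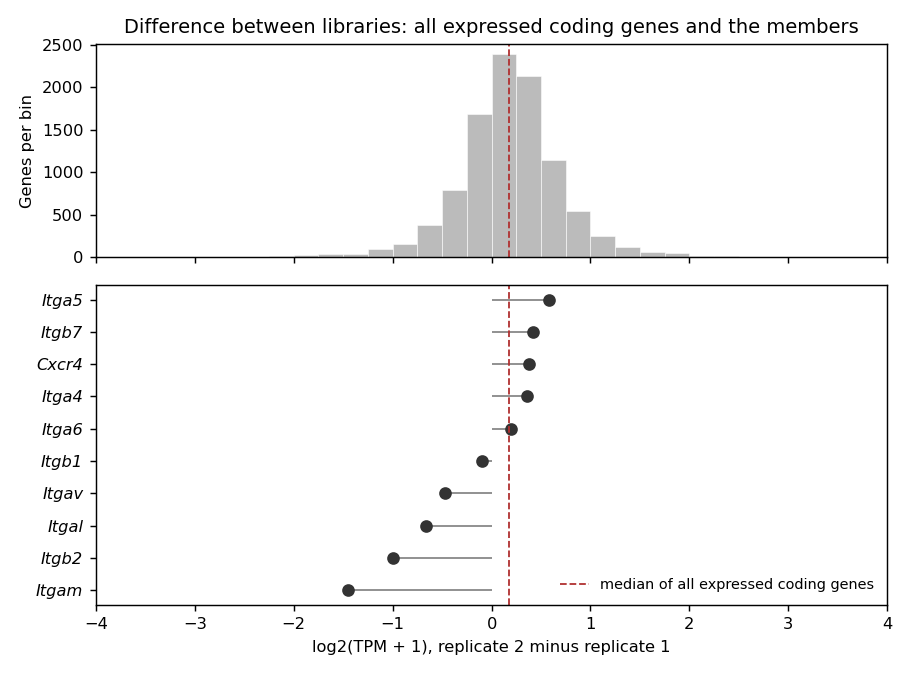
Upper panel: number of expressed protein-coding genes (9970 of 9982 fall in the range drawn) by the difference in log2(TPM + 1), replicate 2 minus replicate 1. Lower panel: the same difference for each of the 10 genes, from 0.58 for Itga5 to -1.45 for Itgam, with a dashed line at the median of all expressed protein-coding genes, 0.18.

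Among the 9 genes with a mean of at least 1 TPM, 1 differed by 2-fold or more between the libraries, Itgb2, beside 11.9% of the 9982 expressed protein-coding genes in either direction. In its own direction, replicate 1 over replicate 2, the share of all genes was 3.97%, and the count of members again 1 of 9. The call ended when the 630-base transcript was left out and with TMM factors. The credibility intervals did not overlap for 6 of these 9 genes, and for 60.3% of the same 9982 genes. Neither share set the members apart from other genes.

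Because an integrin needs both chains, the mRNA of each β chain was set beside the summed mRNA of the α chains known to pair with it. Itgb1 mRNA was less abundant than that of its 12 α partners: 33.13 against 110 TPM in replicate 1 and 30.81 against 140 TPM in replicate 2, a ratio of 0.261 ± 0.0572 (SD, n = 2). Itga4 was the bulk of that sum, at 2.32 and 3.22 times the level of Itgb1. Part of this excess lay on Itga4 transcripts without a coding sequence. The coding transcript of Itga4 was at 52.58 and 59.04 TPM, and the A form of Itgb1 at 31.00 and 30.81 TPM. Itgb2 was more abundant than its 4 α partners, at 10.80 against 6.85 TPM and 4.88 against 2.67 TPM, a ratio of 1.7 ± 0.178 (SD, n = 2). That ratio was 1.58 in replicate 1 and 1.83 in replicate 2. It rests partly on the 630-base transcript: over transcripts of at least 1000 bases, Itgb2 was at 7.14 against 6.19 TPM and 4.88 against 2.66 TPM, ratios of 1.15 and 1.83. It also rests on the transcript annotated for nonsense-mediated decay. Without that transcript Itgb2 was at 7.80 and 2.29 TPM, above its α partners in replicate 1 but below their 2.67 TPM in replicate 2. That 7.80 TPM still includes the 630-base transcript. The full-length coding transcript alone, ENSMUST00000000299.9, was at 4.14 and 2.29 TPM, below the α sums of 6.85 and 2.67 TPM. Itgb7 was far below its α partners Itga4 and Itgae, at a ratio of 0.04 ± 0.00355 (SD, n = 2), and Itga4 also counts toward β1. The ratios compare mRNA, not chains at the surface.

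**Figure D3:**
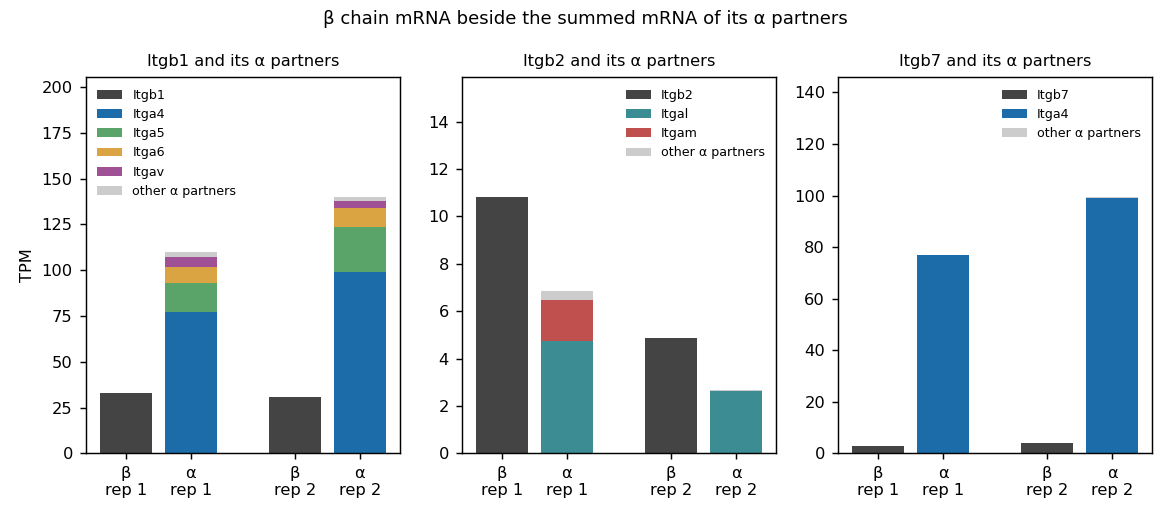
TPM of each β chain (dark bars) beside the stacked TPM of its known α partners in replicates 1 and 2; Itga4 appears under both Itgb1 and Itgb7, and the 3 panels have different axes. The α stack stands over Itgb1 and Itgb7 in both libraries and under Itgb2.

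Shares within the family were taken from gene TPM, which counts every transcript, also those without a coding sequence. Protein-coding transcripts held 68.3% and 59.5% of the Itga4 TPM and 72.2% and 46.9% of the Itgb2 TPM. Of the TPM of all α chain genes, 128.3 in replicate 1 and 156.9 in replicate 2, Itga4 made up 60% and 63.2%, Itga5 12.5% and 15.7% and Itga6 6.64% and 6.35%. Of the TPM of all β chain genes, 47.66 and 40.39, Itgb1 made up 69.5% and 76.3%, Itgb2 22.7% and 12.1% and Itgb7 6.06% and 10.4%. The order of the 3 β chains was the same in both libraries, but Itgb2 and Itgb7 lay closer together in replicate 2. At 1 TPM or more in both libraries were 6 of 18 α chains and 3 of 8 β chains. The only one of them outside the 10 genes was Itga2b, the αIIb chain of the platelet fibrinogen receptor, at 11.45 and 14.50 TPM, or 8.92% and 9.24% of the α chain TPM. Its partner Itgb3 was at 0.22 TPM from 27 counts and 0.44 TPM from 95 counts, so Itga2b was 52 and 33 times higher. Itgam, Itga9 and Itga10 reached 1 TPM in 1 library each, the last 2 named after their values were seen, at 2.31 and 0.01 TPM and at 0.04 and 2.07 TPM.

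Transcripts were compared by the share of the gene's TPM. In 5 of the 8 members with several transcripts and 1 TPM in both libraries, the same transcript led in both, beside 69.4% of 7112 protein-coding nuclear genes of that kind. The 3 exceptions were Itga6, Itgb2 and Itgal, described above. By expected count, an alternative chosen after seeing the data, the same transcript led in 8 of 8, beside 77% of those 7112 genes. Itga4, Itgb1, Cxcr4 and Itgb7 kept the lead of their full-length coding transcript by either measure.

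**Figure D4:**
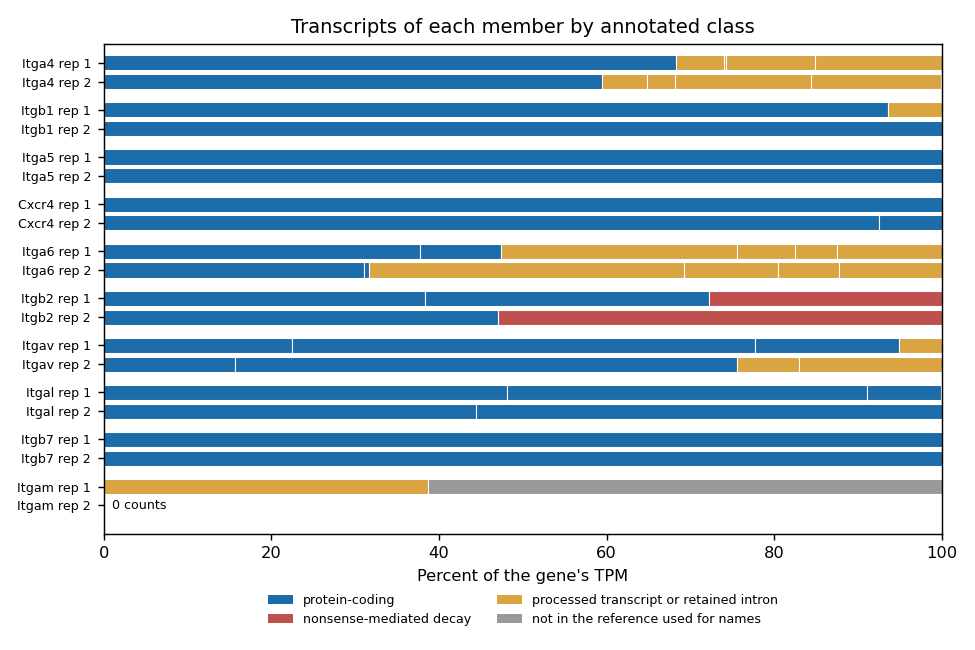
Percent of each gene's TPM in its transcripts, coloured by annotated class, with 1 bar per library and white lines between transcripts. Itga5, Cxcr4, Itgal and Itgb7 were wholly on protein-coding transcripts, while 53% of Itgb2 in replicate 2 was on a transcript for nonsense-mediated decay.

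The ligands of these receptors were mostly not detected in MEP. Of 20 matrix and cell surface ligands, 3 were at 1 TPM or more in both libraries, beside 44.2% of protein-coding nuclear genes. Another 10 were listed at 0 TPM in both. Vcam1, the ligand of α4β1, had 1 count in replicate 1 and 0 in replicate 2, Madcam1, the ligand of α4β7, had 0 in both, and Fn1, which encodes fibronectin, was at 0 and 0.34 TPM. Among ligands of β2 integrins, Icam2 was at 19.28 and 9.66 TPM and Icam4, a red cell ligand, at 12.99 and 15.34. Icam1 was at 0.64 and 1.58 TPM, under 1 TPM in replicate 1. The laminin chain gene Lamc1 was at 1.14 and 1.43 TPM. C3, the complement protein whose fragment αMβ2 binds, was at 3.70 TPM in replicate 1 and had 0 counts in replicate 2, the library pattern of Itgam.

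Integrin activation and adaptor genes include activators, inhibitors and proteins that link integrins to actin. Of these, 24 of 32 were at 1 TPM or more in both libraries, beside 44.2% of protein-coding nuclear genes, and 4 were listed at 0 in both. Since the lists were chosen with earlier results of these data known, such shares cannot set them apart from other genes. The highest were Ilk, a scaffold kinase at the integrin tail, at 65.29 and 73.59 TPM, and Tln1, the talin that binds β tails, at 72.30 and 49.52 TPM. Next were Flna, a filamin that ties integrins to actin, at 64.95 and 55.80 TPM and Apbb1ip, which brings talin to the membrane with RAP1, at 53.04 and 67.25 TPM. The median over the 32 genes was 14.8 TPM in replicate 1 and 15.8 in replicate 2. Of the 25 with a mean of at least 1 TPM, 1 differed by 2-fold or more, beside 11.9% of expressed protein-coding genes.

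For CXCR4, the receptor was present without its chemokine. Cxcl12 and Ackr3, the second CXCL12 receptor, had 0 counts in both libraries. Of 10 other chemokine receptor genes in the list, 0 reached 1 TPM in either library. The highest, Cxcr6 (named after its values were seen), was at 0.44 and 0.67 TPM, far under Cxcr4. Of 36 chemokine receptor and CXCR4 signalling genes, 22 were at 1 TPM or more in both libraries, beside 44.2% of protein-coding nuclear genes. The highest were Cdc42, a small GTPase of the cytoskeleton, at 114.40 and 124.30 TPM, Gnb1, a G protein β subunit, at 94.37 and 102.58, Gnai2, the inhibitory G protein subunit through which CXCR4 signals, at 84.41 and 106.04, and Rac1, a further GTPase, at 70.10 and 88.08. Of the 23 genes with a mean of at least 1 TPM, 1 differed by 2-fold or more, beside 11.9% of expressed protein-coding genes. Cxcl12 is also a marker of marrow stroma, and the list of 7 stroma and endothelium markers summed to 5.81 and 6.82 TPM. Most of this was Pecam1 at 4.60 and 4.34, which blood cells also express. The stromal marker Pdgfrb was at 1.21 TPM from 140 counts and 2.47 TPM from 501 counts.

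Of 26 other homing and adhesion genes, 14 were at 1 TPM or more in both libraries, beside 44.2% of protein-coding nuclear genes. Cd24a, a small surface glycoprotein of red cell precursors, was at 332.24 and 333.97 TPM, above every integrin chain. Cd47, the signal that spares cells from uptake by macrophages, was at 92.33 and 140.23 TPM, and the tetraspanins Cd81 and Cd82, which sit beside integrins in the membrane, were at 80.28 and 92.51 and at 50.38 and 49.37 TPM. Itga4 lay within the range of these 4 genes, and the other members lay under that range.

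**Figure D5:**
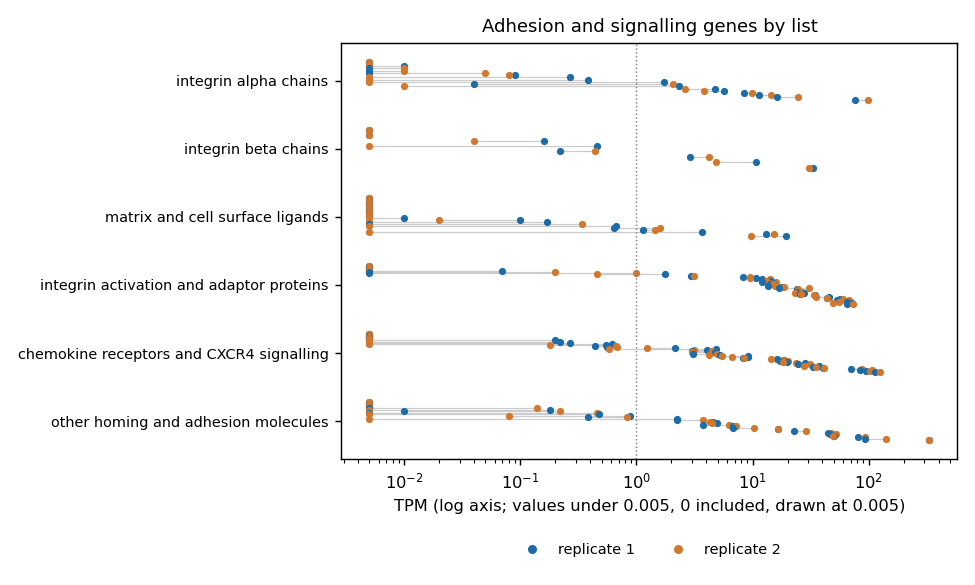
TPM (log axis) of each gene of 6 lists in replicates 1 and 2, joined by a grey line; the dotted line marks 1 TPM. Ligands lay mostly at or near 0, with 3 of 20 at 1 TPM or more in both libraries, while 24 of 32 activation and adaptor genes were at that level.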

How the data were processed

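Total RNA was sequenced from 2 libraries of MEP cells. Per the README beside the tables, genes and transcripts were quantified on mm10 with GENCODE M4; for the aligner and quantifier the sources used here give no versions. The deposited expected counts are estimated and need not be whole. The authors scaled TPM over all features, so ribosomal RNA lowers every other gene. The deposited FPKM values were used only as an alternative. The authors' percent columns give each transcript's share of its gene. The deposited signal columns are the bounds of the credibility intervals.

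The members and gene lists were chosen with earlier results of these data known. Named genes were all members, other integrin chains at 1 TPM in both libraries with Itga2b and Itgb3, the 4 highest of each further list with Vcam1, Fn1, Icam1, Madcam1, Cxcl12 and Ackr3, and the 3 highest of each marker list, as far as printed. Of the latter the mast cell and basophil list summed to 3.87 and 3.28 TPM and the megakaryocyte list to 15.3 and 18.2 TPM. Names, coordinates and the sequences shown came from GENCODE M21 on GRCm38 (mm10), matched by identifier for 42462 of 43346 genes. Detection was set at 1 TPM, and differences were taken as log2(TPM + 1), which understates the change of low genes. Intervals of ratios are Clopper-Pearson intervals (exact, 95%) on rounded counts; reads are not independent molecules. The libraries were checked for duplication (chi-square per degree of freedom 62.8 over 11453 genes). In R 4.3.3, edgeR 4.0.16 gave TMM factors and DESeq2 1.42.0 gave size factors; other steps used Python 3.11.15, numpy 2.4.6, pandas 2.3.3, scipy 1.17.1 and matplotlib 3.10.9.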

Additional observations from a re-analysis of the deposited data

How the results depend on the processing

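Of 43 alternative values for the summary results, 28 stayed within their limits and 15 moved. With a detection minimum of 5 TPM, 5 members were detected in both libraries and 3 of 4 had the same main transcript. After rescaling to protein-coding nuclear genes, the median member level was 20.2, the median difference -0.12 and 3 members were past 2-fold (Itgal, Itgam and Itgb2). With TMM factors on counts, the median level was 14.9 and the median difference -0.15, also with DESeq2 factors, and the 1 member past 2-fold was Itgal. With posterior means, 2 members were past 2-fold (Itgb2, and Itgam with 0 counts in replicate 2) and the β2 to α ratio was 1.5. Members with a mean of at least 1 TPM had a median difference of 0.20. Summed over transcripts of at least 1000 bases, chosen after seeing the data, the median level was 6.62, 0 members were past 2-fold and the β2 to α ratio was 1.49. By expected count, also chosen after seeing the data, 8 of 8 members had the same main transcript. Each library alone gave 9 to 10 members detected, a median level of 7.43 to 9.66, and β to α ratios of 0.221 to 0.301 for Itgb1, 1.58 to 1.83 for Itgb2 and 0.0375 to 0.0425 for Itgb7. Of 50 alternative levels of single members, 38 stayed within 1 SD; rescaling moved 10 of 10, since its divisor is smaller, and leaving out short transcripts moved Itga6 to 7.23 and Itgav to 1.54 TPM. No paired analysis was possible because the series has 1 group. With 101 counts, Itgam is the least deeply measured member.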
